A study of Rattus norvegicus with 15 samples.

Results

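The 8 genes Hcrt, Trh, Pmch, Avp, Oxt, Pomc, Agrp and Gal encode peptide messengers made mainly by neurons of the hypothalamus, and were followed here in libraries labelled as hippocampus. Their records were picked by gene symbol, 1 record per gene, so the 8 genes are 8 of 18278 transcript records, of which 17339 carried a symbol. They were picked with their hippocampal read counts in view, so their values are given as a description without a test. The RNA was rat hippocampus RNA, taken after stimulation of the vagus nerve (VNS), which links the viscera with the brainstem. The 4 VNS rats were stimulated through an implant for 30 min on each of 4 days. The 3 control rats carried a sham implant. All 7 rats also spent 10 min a day in a novelty preference test on days 2 to 4, and were killed right after the last session. Another 4 VNS and 4 control rats, for which no task is recorded on the samples, gave cortex libraries. The sources used here give no strain, sex or age.

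Peptide hormones are cut from longer precursors inside secretory granules and act on G protein-coupled receptors, often far from the cell that made them. In the hypothalamus, Hcrt (hypocretin, also called orexin) and Pmch (melanin-concentrating hormone) mark separate cell groups of the lateral area, Avp (vasopressin) and Oxt (oxytocin) the magnocellular neurons, and Pomc and Agrp opposing feeding neurons of the arcuate nucleus. Trh (thyrotropin-releasing hormone) drives the thyroid axis and Gal (galanin) is made in several hypothalamic and brainstem groups. Fibres of several of these neurons reach the hippocampus, whereas most of the cell bodies, where the mRNA lies, do not. Some of the 8, such as Trh, Gal and Pomc, are also made by cells outside the hypothalamus, so they are not strict markers of it.

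The results turn mostly on Hcrt and Trh, whose signal was concentrated in a few libraries, and so the sequence before their transcription starts is shown. The letters are the 250 bases before the RefSeq start in assembly GRCr8, 5′ to 3′ on the gene's strand. Capitals mark matches to the TATA core TATAA and to TGACCTCA, which in the human TRH promoter has been described as a site for thyroid hormone receptor and CREB.
Hcrt, chr10:86191525-86191774, minus strand: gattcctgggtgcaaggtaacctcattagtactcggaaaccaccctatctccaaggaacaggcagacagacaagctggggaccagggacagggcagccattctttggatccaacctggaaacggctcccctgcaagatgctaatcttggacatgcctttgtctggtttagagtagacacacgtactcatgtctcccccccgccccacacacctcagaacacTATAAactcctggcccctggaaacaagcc
Trh, chr4:126301763-126302012, minus strand: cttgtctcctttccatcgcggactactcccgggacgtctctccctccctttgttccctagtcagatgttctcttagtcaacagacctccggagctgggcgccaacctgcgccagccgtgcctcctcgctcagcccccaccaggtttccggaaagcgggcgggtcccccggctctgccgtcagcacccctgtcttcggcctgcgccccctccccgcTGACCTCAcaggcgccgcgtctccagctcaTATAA
The 4 motifs were searched on both strands, and the matches printed do not overlap each other. TATAA begins 29 bases before the start of Hcrt and 5 bases before that of Trh. It occurred in 5 of the 7 members with a promoter in the RefSeq table, against 24.0% of 33469 promoter windows of this length. The matches in Pomc and Gal begin 32 and 41 bases before the start, and that in Agrp is on the reverse strand at 115 bases. These shares count the letters on either strand at any place in the window, and are not counts of TATA boxes. TGACCTCA begins 35 bases before the Trh start and was in no other member, against 2.31% of windows. Neither the cAMP response element TGACGTCA (1.59% of windows) nor CCAAT (34.0%) was found in the 7 windows, which says only that these letters are not there. Pmch had no entry in that table.

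The first 2 control libraries stood apart from the others in what tissue they resembled. Summed CPM (read counts scaled to a common library size with TMM factors, which offset differences in composition) of 11 genes of hippocampal and telencephalic neurons was 3179, 1890, 2175 and 2283 in VNS libraries 1 to 4. It was 467, 203 and 2168 in control libraries 1 to 3. Thalamic genes summed to 42.7 to 209.3 CPM in the VNS libraries, and to 1565, 553 and 88.2 CPM in the controls. Of the 11 genes, 10 lay below every VNS library in control library 1 and 11 did in control library 2. Neurod6, a gene of telencephalic pyramidal neurons, had 58.9 to 207.4 CPM after VNS, against 0.65, 1.05 and 81.4 CPM in the controls. The exception in control library 1 was Prox1, a gene of dentate granule cells, at 84.1 to 163.8 CPM after VNS and 89.8, 15.3 and 79.9 CPM in the controls. Control libraries 1 and 2 were therefore low in most markers of the labelled tissue, and values are given with and without them where it matters. Depth varied as well: the libraries held 16728486 to 51463555 reads. Ribosomal RNA records took 73.1% of VNS library 3 and 7.11% to 31.6% of the other 6, which left VNS library 3 with 4301901 reads outside ribosomal and 7SL RNA records and the other 6 with 12147165 or more. A level of 3 reads was worth 0.61 CPM in VNS library 3 and 0.044 to 0.15 CPM in the other libraries.

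**Figure D1:**
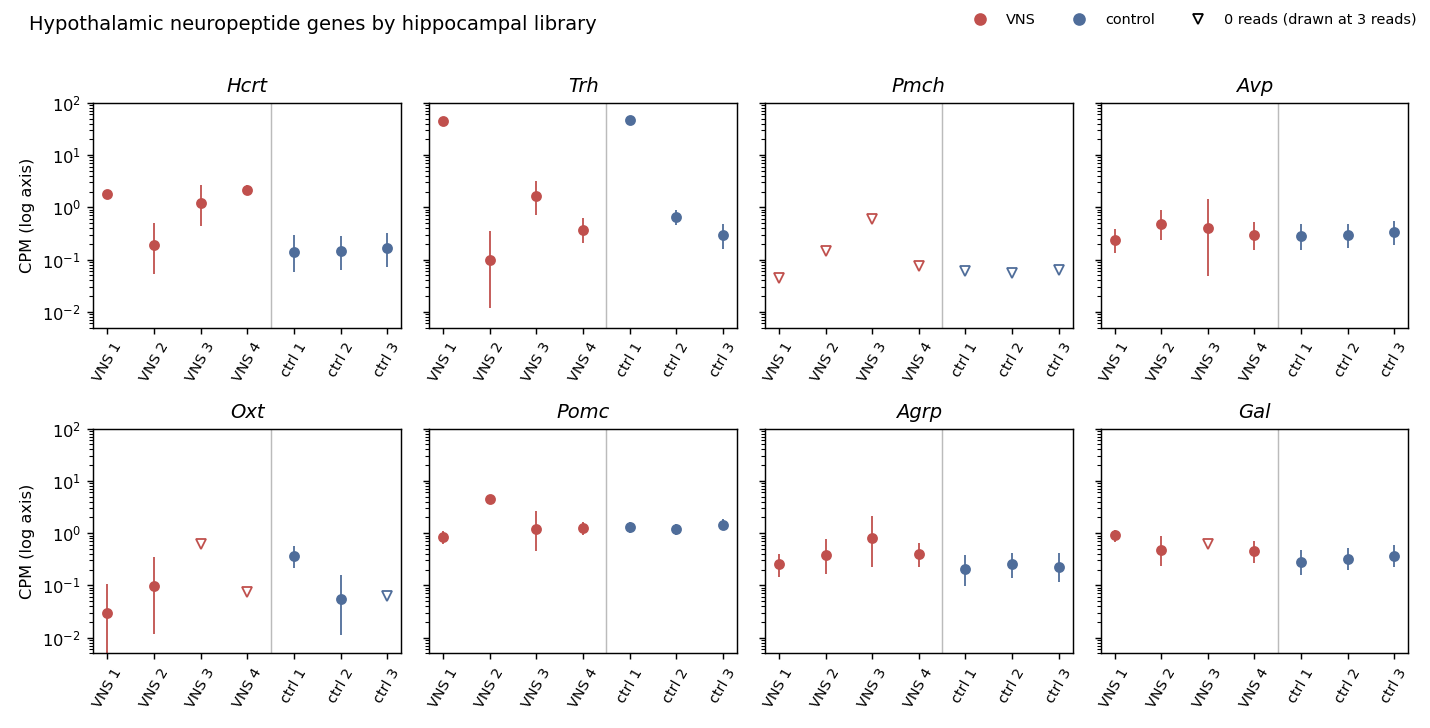
CPM (log axis) of each gene in the 4 VNS and 3 control (ctrl) hippocampal libraries, with exact 95% Poisson intervals of the reads. Open triangles are libraries with 0 reads, drawn at the level of 3 reads. Hcrt is above 1 CPM in VNS libraries 1, 3 and 4, and Trh is above 40 CPM in VNS library 1 and control library 1.

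Hcrt, the precursor of the wake-promoting hypocretins, was the one gene of the 8 with every VNS library above every control on the TMM scale. On library totals alone, which include ribosomal RNA, the groups overlapped. The record (NM_013179) lies on chromosome 10 from 88463386 to 88464597 on the minus strand in rn5, with 2 exons and 553 exonic bases. VNS libraries 1 to 4 held 119, 4, 6 and 86 reads, and control libraries 1 to 3 held 7, 8 and 8. In CPM this was 1.76, 0.19, 1.22 and 2.13 after VNS, against 0.14, 0.14 and 0.17 in controls. So 3 VNS libraries were high, VNS library 2 sat just above the controls, and the 3 controls lay close together although 2 of them were low in most hippocampal markers.

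The interval of the Hcrt reads put VNS library 2 at 0.05 to 0.50 CPM, which covers all 3 control values. VNS library 3 rested on 6 reads, for an interval of 0.45 to 2.65 CPM. The firm part of the Hcrt signal is thus in VNS libraries 1 and 4, with intervals of 1.46 to 2.11 and 1.70 to 2.63 CPM. The means were 1.33 ± 0.84 CPM in VNS libraries (SD, n = 4) and 0.15 ± 0.013 CPM in controls (SD, n = 3), a log2 ratio of 3.13. Among all 12728 records that passed the filter on low counts, 4.67% had every VNS library above every control, 4.61% had every one below, and 0.0% passed edgeR's quasi-likelihood test. Those shares stand beside Hcrt as background, and nothing is read from them because the gene was picked on this contrast. On library totals without composition factors the shares were 0.0471% above and 17.5% below. On that scale Hcrt overlapped as well, with VNS library 2 the lowest of all. It was at 2.31, 0.1997, 0.36 and 2.13 CPM of library total after VNS and 0.202, 0.212 and 0.201 CPM in controls. These totals include ribosomal RNA, which took 9.34%, 31.6%, 73.1% and 31.3% of VNS libraries 1 to 4. In control libraries 1 to 3 it took 8.85%, 7.11% and 19.3%. More ribosomal RNA lowers other genes on this scale, so the overlap cannot be read as one of Hcrt alone.

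The Hcrt ratio moved little when libraries were left out. It was 2.81 to 3.49 without any 1 of the 7 libraries and 2.99 without control libraries 1 and 2. Hypocretin neurons of the rodent lateral hypothalamus express the transcription factor gene Lhx9, which had 4.12, 3.54, 4.67 and 1.19 CPM in the VNS libraries and 2.48, 12.2 and 2.26 CPM in the controls. That order differed from the order of Hcrt, since Lhx9 was lowest in VNS library 4, where Hcrt was highest. Nkx2-1, another hypothalamic gene, had 0.27, 0.10, 1.22 and 0.25 CPM after VNS and 0.69, 0 and 0 CPM in controls. Like Hcrt, it was higher in VNS libraries 1, 3 and 4 than in VNS library 2 and control libraries 2 and 3. Unlike Hcrt, it was also high in control library 1. The next records on the same strand did not share the Hcrt pattern. Kcnh4, a potassium channel gene 1833 bases downstream, had 2.99, 7.57, 3.25 and 4.66 CPM after VNS and 2.46, 2.64 and 7.43 CPM in controls. Ghdc, 2406 bases upstream, had 4.88 to 9.29 CPM after VNS and 16.6, 18.4 and 7.89 CPM in controls.

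Trh had the most reads of the 8 genes, and nearly all of them came from 1 VNS and 1 control library. The record (NM_013046) lies on chromosome 4 from 189148770 to 189151296 on the plus strand in rn5, with 3 exons and 1391 exonic bases. VNS libraries 1 to 4 held 2990, 2, 8 and 15 reads, and control libraries 1 to 3 held 2322, 36 and 14. In CPM this was 44.3, 0.10, 1.63 and 0.37 after VNS, against 47.3, 0.65 and 0.29 in controls. VNS library 1 and control library 1 together held 98.6% of the reads, and the lower of them stood 27.2-fold above the next library. The ranges of the groups overlapped, with the lowest value in VNS library 2 and the highest in control library 1.

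Any group ratio of Trh follows from which of those libraries is present. The means were 11.6 ± 21.8 CPM after VNS (SD, n = 4) and 16.1 ± 27.0 CPM in controls (SD, n = 3), so the SD exceeded the mean in both groups. The log2 ratio was -0.47 with all libraries, -4.52 without VNS library 1, 4.62 without control library 1 and 5.32 without control libraries 1 and 2. Per kilobase of record, Trh in VNS library 1 lay above 86.4% and in control library 1 above 88.7% of the records that passed the filter. In the other 5 libraries it lay above 1.49% to 19.6% of them.

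The 2 libraries high in Trh differed in other regional genes. VNS library 1 had the highest summed hippocampal gene level (3179 CPM) and the lowest thalamic one (42.7 CPM), whereas control library 1 stood at 467 and 1565 CPM. Tac3, which encodes the precursor of neurokinin B, was at 48.9 CPM in VNS library 1 and 2.96 to 9.55 CPM in the other VNS libraries, against 0.90 CPM in control library 1 and 1.90 and 5.22 CPM in the other controls. Th, the rate-limiting enzyme of catecholamine synthesis, was at 0.43 CPM in VNS library 1, against 47.6 CPM in control library 1. Slc6a3, the dopamine transporter, was at 0.15 CPM in VNS library 1 and 73.7 CPM in control library 1. The part of these tissue differences in the Trh signal was not tested.

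**Figure D2:**
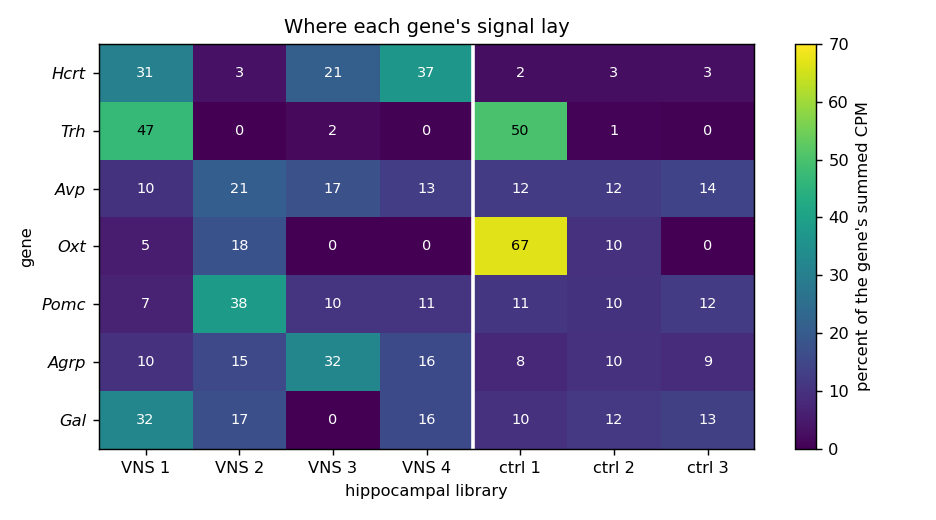
Percent of each gene's summed CPM found in each of the 4 VNS and 3 control (ctrl) hippocampal libraries, so that each row adds up to 100. Trh splits between VNS library 1 (46.8%) and control library 1 (49.97%), Hcrt between VNS libraries 4, 1 and 3, and Avp is spread over all 7 libraries.

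Pmch, the marker of the lateral hypothalamic neurons that lie among the hypocretin cells, had 0 reads in all 7 hippocampal libraries. The record (NM_012625) lies on chromosome 7 from 28764993 to 28766309 on the plus strand in rn5. All 745 bases of its 3 exons lie inside 1 exon of Parpbp, on the minus strand from 28764494 to 28767237. The hippocampal reads were counted without strand, and by default featureCounts assigns no read that overlaps more than 1 record. Of all records, 44 had every exonic base shared with records of the opposite strand, and 44 of these 44 had 0 hippocampal reads, compared with 16.9% of all records. A count of 0 for Pmch here is therefore no measurement of its level, and whether Pmch accompanied Hcrt cannot be read from these counts. None of the other 7 members shared an exonic base with another record.

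Avp and Oxt, the paralogous genes of the magnocellular neurons, lie 9948 bases apart on opposite strands of chromosome 3 in rn5. The Avp record (NM_016992) spans 129615610 to 129617588 and the Oxt record (NM_012996) 129604822 to 129605661. Avp, the antidiuretic hormone precursor, had 0.24, 0.49, 0.41 and 0.30 CPM after VNS, against 0.29, 0.29 and 0.33 CPM in controls. These values rest on 16, 10, 2 and 12 reads after VNS and 14, 16 and 16 in controls. The 2 reads of VNS library 3 gave an interval of 0.05 to 1.47 CPM, so that library says little about evenness. By these values Avp was the most even of the genes with reads in every library, with the highest library 2.05-fold above the lowest. Its group means were 0.36 ± 0.11 CPM after VNS (SD, n = 4) and 0.30 ± 0.03 CPM in controls (SD, n = 3). They differed by less than the SD of the VNS libraries.

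Oxt did not share that evenness. VNS libraries 1 to 4 held 2, 2, 0 and 0 Oxt reads, and control libraries 1 to 3 held 18, 3 and 0. Control library 1 alone was clearly above the level of 3 reads, at 0.37 CPM with an interval of 0.22 to 0.58 CPM. The gene did not pass the filter on low counts. Its log2 ratio of means was -2.15 on these few reads and 0.22 without control library 1. Sim1 and Otp are transcription factor genes needed for these neurons in the mouse. Sim1 had 5, 2, 2 and 8 reads in the VNS libraries and 26, 0 and 5 in the controls, and Otp had 3 reads in control library 1 and 0 in the other 6. Nkx2-1, a hypothalamic patterning gene, had 18, 2, 6 and 10 reads after VNS and 34, 0 and 0 in controls. Control library 1 thus held the most reads of Oxt, Sim1, Otp and Nkx2-1. In CPM, however, Nkx2-1 was highest in VNS library 3, at 1.22 CPM against 0.69 CPM in control library 1. Other hypothalamic transcription factor genes peaked elsewhere. Six6 and Rax had 0 and 2 reads in control library 1, 16 and 13 in control library 2, and 14 and 23 in control library 3. Control library 1 was also the library highest in thalamic, striatal and midbrain genes, whose part in this was not tested.

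Pomc, the precursor of the melanocortins and beta-endorphin, gave reads in all libraries. Its record (NM_139326) lies on chromosome 6 from 38191989 to 38197809 in rn5. Levels were 0.83, 4.47, 1.22 and 1.24 CPM after VNS and 1.28, 1.20 and 1.45 CPM in controls. VNS library 2 was 3.08-fold above the next library and the other 6 lay within the range of 0.83 to 1.45 CPM. The means were 1.94 ± 1.70 CPM after VNS (SD, n = 4) and 1.31 ± 0.13 CPM in controls (SD, n = 3), and the log2 ratio of 0.57 became -0.26 without VNS library 2. Of 6 pituitary genes, the other well-known site of Pomc, summed levels were 0.31 to 1.22 CPM after VNS (0.78 in VNS library 2). In controls they were 0.58 to 0.69 CPM. The prolactin gene Prl had 0 reads in all 4 VNS libraries and 0, 0 and 10 reads in the controls. VNS library 2 had the highest thalamic sum of the VNS libraries, at 209.3 CPM against 42.7 to 92.3 CPM. Control libraries 1 and 2, at 1565 and 553 CPM, were not high in Pomc. The part of tissue makeup in the Pomc level was not tested.

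Agrp, which encodes an antagonist of the melanocortin receptors and opposes Pomc products, was low everywhere. Its record (NM_033650) lies on chromosome 19 from 48392318 to 48393910 in rn5. It had 17, 8, 4 and 16 reads in the VNS libraries, against 10, 14 and 11 in the controls, or 0.25, 0.39, 0.81 and 0.40 CPM after VNS and 0.20, 0.25 and 0.23 CPM in controls. VNS library 1 was below control library 2 by a narrow margin, so the groups overlapped. The log2 ratio of 1.02 was 0.60 without VNS library 3, which held 4 reads and had an interval of 0.22 to 2.08 CPM. Atp6v0d1, a proton pump gene at 202.5 to 283.1 CPM, starts 656 bases downstream of Agrp on the same strand, and no exonic base is shared.

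Gal, the galanin precursor, had 61, 10, 0 and 18 reads in VNS libraries 1 to 4 and 14, 18 and 18 in control libraries 1 to 3. Its record (NM_033237) lies on chromosome 1 from 225520966 to 225525829 in rn5. In CPM this was 0.90, 0.49, 0 and 0.45 after VNS, against 0.29, 0.33 and 0.37 in controls. A count of 0 in VNS library 3 allows up to 0.61 CPM by the 3-read limit, above every control, so that library carries little information on Gal. The 3 deeper VNS libraries lay above the controls, but the log2 ratio of 0.48 became -0.08 without VNS library 1.

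In all, 7 of the 8 genes had hippocampal reads and 6 passed the filter on low counts (all but Pmch and Oxt). The mean was higher after VNS for Hcrt, Avp, Pomc, Agrp and Gal and lower for Trh and Oxt, while 49.3% of all tested records had a fold change above 0. Without composition scaling, on library totals alone, the median over all records shifted to -0.59, the Avp ratio turned to -0.42 and Agrp moved to 0.13, while Hcrt stood at 2.61. Per kilobase of record, mean levels after VNS ran from Trh (8.34 CPM per kb) through Hcrt (2.40), Pomc (2.08), Agrp (0.71), Gal (0.66) and Avp (0.61) to Oxt (0.059). In controls the order was Trh (11.6 CPM per kb), Pomc (1.4), Avp (0.52), Gal (0.47), Agrp (0.35), Hcrt (0.27) and Oxt (0.26). Hcrt and Pomc after VNS, and Agrp, Gal and Avp after VNS, did not differ beyond their spread. Because these are bulk samples, more cells of a type and more RNA per cell cannot be told apart.

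**Figure D3:**
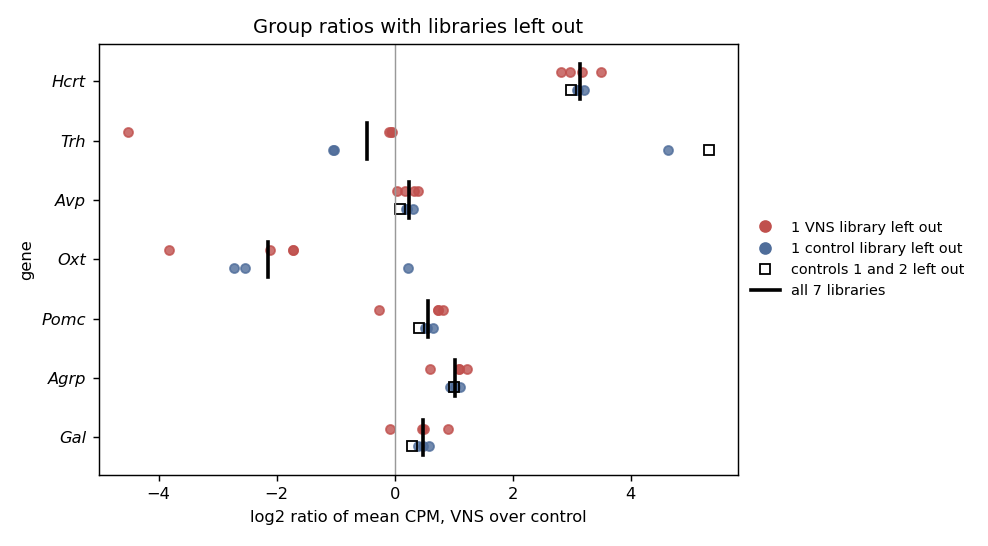
Log2 ratio of mean CPM, VNS over control, for the 7 genes with reads. Black bars use all 7 libraries, dots leave out 1 VNS or 1 control library, and squares leave out control libraries 1 and 2 (not drawn for Oxt, where the remaining control had 0 reads). Hcrt stays between 2.81 and 3.49 when 1 library is left out, whereas Trh ranges from -4.52 to 4.62.

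The genes did not share a common library pattern. Likeness was measured as the overlap of 2 genes' shares of CPM over the 7 libraries, from 0 to 1. Hcrt and Trh overlapped by 0.36, Hcrt and Gal by 0.58, and Avp and Pomc by 0.83. The median overlap with 12727 other records was 0.54 for Hcrt, 0.32 for Trh, 0.87 for Avp, 0.75 for Pomc and 0.76 for Gal. Avp and Pomc thus overlapped less than Avp and a typical record, but above the 99th percentile of 0.81 for Pomc. Hcrt with Trh and Hcrt with Gal each lay between the medians of the 2 genes. The records most like Hcrt were Grk1, a photoreceptor kinase (0.84), Lyzl4, a lysozyme-like gene (0.82), and Klk10, a kallikrein-related peptidase (0.82), against a 99th percentile of 0.72. Those most like Trh were C16h10orf53 (0.78), Vil1, an actin-bundling protein (0.72), and Rsph14 (0.72), each under 1 CPM in every library. For Pomc the nearest was Cbln1, a synaptic organiser (0.92), which was also highest in VNS library 2 at 19.7 CPM, against 2.53 to 5.89 CPM in the other VNS libraries and 5.50 to 7.28 CPM in controls. Nxpe4 (0.98) led for Avp, Cpne2 (0.96) for Agrp and Smco4 (0.93) for Gal, and Tas1r3 and Slc18a1 followed for Pomc, Cdc42bpg and Fzd9 for Avp, Tceal5 and Dtwd2 for Agrp, and Chi3l1 and Rpl11 for Gal. The measure compares libraries that differ in depth and tissue makeup, and nothing about shared function follows from it.

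Most receptors of these peptides had enough reads for the test, and none passed it. Avpr1b, Mc3r, Mc5r, Galr3 and Oprm1 had a record but did not pass the filter on low counts. Of 18 receptor genes, 16 had a record and 11 were tested (0 passed, 5 higher and 6 lower after VNS, median log2 fold change -0.01, against -0.01 over all records). Oprm1, the mu opioid receptor, has 13 records, of which 12 had 0 reads and 1 had 2 reads in control library 1. Reads that overlap several records are not assigned, so these counts are no measure of its level. Mchr1, the melanin-concentrating hormone receptor, was at 9.67, 10.8, 15.4 and 15.3 CPM after VNS and at 2.61, 5.40 and 9.69 CPM in controls (log2 fold change 1.11, SE 0.42, adjusted p = 0.40, edgeR). The groups overlapped, since control library 3, the control with hippocampal markers, lay just above VNS library 1. Galr1, a galanin receptor, stood at 0.39 to 1.02 CPM after VNS, against 1.51, 7.01 and 0.64 CPM in controls (log2 fold change -2.31, SE 0.80), and its difference was -0.78 without control library 2. For Oprd1, the delta opioid receptor, the estimate was 0.58 (SE 0.41, adjusted p = 0.51, edgeR). Oxtr, the oxytocin receptor, was at 3.01 to 6.96 CPM after VNS and at 0.47, 1.39 and 6.0 CPM in controls.

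The enzymes and granins that handle peptide precursors were abundant, as is usual for forebrain neurons. All 13 were tested (0 passed, 10 higher and 3 lower, median 0.16). Chgb, a granin of dense-core vesicles, had 264.2, 167.2, 479.5 and 188.6 CPM after VNS, against 93.5, 121.1 and 130.2 CPM in controls (log2 fold change 1.26, SE 0.37, adjusted p = 0.40, edgeR). Every VNS library lay above every control for this gene, as for 4.67% of all records. On library totals alone, which include ribosomal RNA, VNS libraries 2 and 3 lay below control library 2. Scg3, a granin that sorts cargo, differed by 0.60 on the log2 scale (SE 0.31) and Qpct, which forms the pyroglutamate end found in thyrotropin-releasing hormone, by -2.09 (SE 0.85), with 1.04 to 3.06 CPM after VNS and 2.59, 18.7 and 1.51 CPM in controls. Without control library 2 the Qpct difference was -0.18. Trhde, the enzyme that degrades thyrotropin-releasing hormone, was at 87.5 CPM in VNS library 1 and 37.2 to 45.7 CPM in the other VNS libraries, and at 17.7, 32.2 and 44.0 CPM in controls. Its highest level fell in one of the libraries high in Trh and its lowest in the other.

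Peptides that are released together with the 8 were also without a call. Of 6 co-transmitter genes, 5 were tested (0 passed, 3 higher and 2 lower, median 0.07), while the 4 overlapping records of Tac1 had 0 reads, which for the same reason as for Oprm1 is no measure of its level. Pdyn, co-released by hypocretin neurons and abundant in hippocampal granule cells, was at 24.5, 84.9, 53.7 and 65.8 CPM after VNS and 7.53, 2.43 and 49.0 CPM in controls (log2 fold change 1.54, SE 0.91). Npy, co-released with Agrp and common in hippocampal interneurons, was at 21.1, 6.65, 16.5 and 11.2 CPM after VNS and 5.35, 3.35 and 7.16 CPM in controls (log2 fold change 1.39, SE 0.42, adjusted p = 0.40, edgeR). Cartpt, co-released by Pmch and Pomc neurons, differed by -0.71 on the log2 scale (SE 0.69). Its levels were 4.30, 1.65, 2.85 and 2.48 CPM after VNS and 5.95, 7.30 and 0.66 CPM in controls.

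Further markers of hypothalamic neurons were sparse. Of 10 other hypothalamic peptides, 9 had a record, 3 of these (Npvf, Prlh and Ucn3) had 0 reads in every library, and 2 were tested (0 passed). Tac3 differed by 2.70 on the log2 scale (SE 1.03, adjusted p = 0.40, edgeR), and by 1.22 without VNS library 1, and Nmu by -0.96 (SE 1.02) at 0.63 CPM or less. Ghrh, Kiss1, Gnrh1 and Qrfp had at most 8 reads in any library. Of 17 hypothalamic transcription factors, 16 had a record and 7 records were tested (0 passed, 2 higher and 5 lower, median -0.78), while Fezf1, Hmx2 and Hmx3 had 0 reads. Barhl1 (log2 fold change -4.34, SE 1.68) and Sox14 (-3.78, SE 2.08) rested largely on control library 2, and Foxb1 (-4.54, SE 1.85) on control libraries 1 and 2. Barhl1 had at most 0.49 CPM after VNS and 0.63, 11.5 and 0.041 CPM in controls. Foxb1 had at most 0.49 CPM after VNS and 2.32, 5.22 and 0 CPM in controls, and Sox14 at most 1.36 CPM after VNS and 0.47, 13.2 and 0 CPM in controls. Without control library 2 the differences were -0.64 for Barhl1, -3.37 for Foxb1 and 0.55 for Sox14. These 3 are also expressed outside the hypothalamus, in the midbrain or brainstem among other places. The summed level of the list was 7.51 to 13.8 CPM after VNS and 15.9, 49.5 and 7.45 CPM in controls. VNS libraries 1 and 4, with the most Hcrt reads, stood at 8.13 and 7.51 CPM, near control library 3. Most of these 2 sums came from Lhx9 (4.12 and 1.19 CPM), Nkx2-2 (2.50 and 4.26 CPM) and Tbx3 (1.13 and 1.46 CPM). Nkx2-1 was at 0.27 and 0.25 CPM and Sim1 at 0.074 and 0.20 CPM, against 0 and 0.10 CPM in control library 3. The sum is thus no measure of how much hypothalamic tissue a library held.

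**Figure D4:**
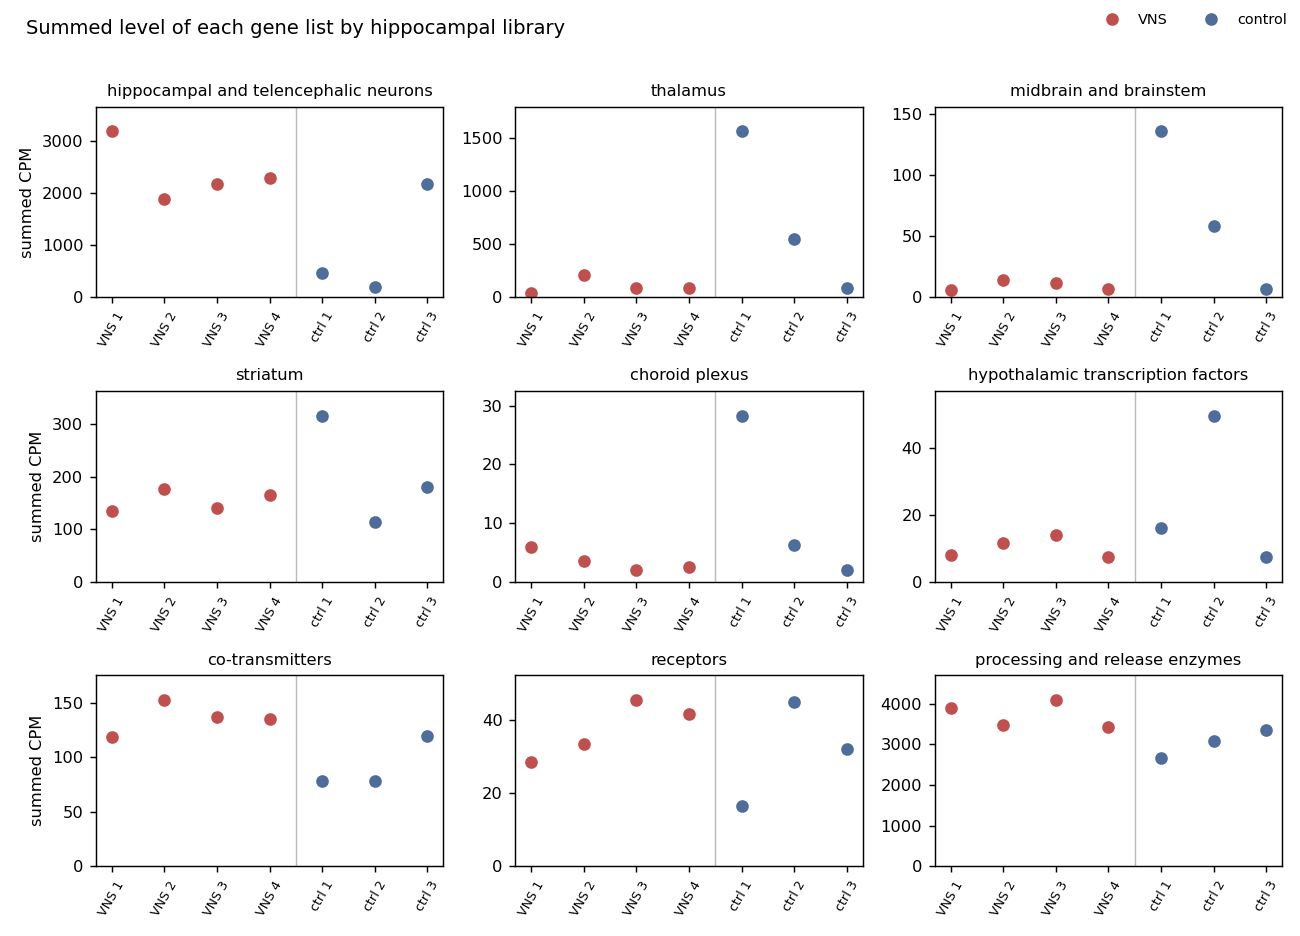
Summed CPM of 9 gene lists in the 4 VNS and 3 control (ctrl) hippocampal libraries, each panel starting at 0. Control libraries 1 and 2 are low in hippocampal genes (467 and 203 CPM) and high in thalamic genes (1565 and 553 CPM). The list of hypothalamic transcription factors is highest in control library 2 (49.5 CPM). There Sox14, Lhx9 and Barhl1 each have 11.5 to 13.2 CPM, whereas Sim1, Otp and Nkx2-1 have 0 reads.

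Genes of neighbouring tissues were mostly highest in control library 1. Over the 12 lists, 0 of 79 records passed, and for 22 the unadjusted p lay under 0.05, compared with 12.1% of all 12728 records. For thalamic genes the median log2 difference was -2.24 (7 of 7 lower after VNS), led by Slc17a6, a vesicular glutamate transporter (-2.86, SE 0.87), with Lef1 (-2.08, SE 0.73) and Prkcd (-4.12, SE 1.54). Striatal genes had a median of -1.10 (7 of 8 lower), led by Six3 (-4.80, SE 1.37), with Drd2 (-2.17, SE 0.70) and Adora2a (-1.86, SE 0.71). Midbrain and brainstem genes had a median of -1.70 (5 of 6 lower), led by Th (-4.37, SE 1.29), with Tal1 (-2.23, SE 0.86) and Tph2 (-1.17, SE 0.47). For these 9 genes the adjusted p = 0.40 (edgeR). Without control library 1 the difference was 0.50 for Prkcd, -1.94 for Six3 and -0.81 for Th, and without control library 2 it was -0.39 for Tal1.

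Choroid plexus genes, from the epithelium that lines the ventricle beside the hippocampus, had a median of -2.12 (4 of 5 lower), with Clic6 (-2.71, SE 0.96), Kl (-2.25, SE 0.89) and Ttr (-2.12, SE 1.26). Ttr was at 0.35 to 3.08 CPM after VNS and at 20.2, 0.43 and 0.79 CPM in controls, so its highest value fell in control library 1. Medial habenula genes had a median of -0.43 (3 of 4 lower), with Chrnb3 (-4.05, SE 1.65), Chrna3 (-0.39, SE 0.80) and Chrnb4 (0.41, SE 0.88), and Chrnb3 was at -0.63 without control library 1. Hippocampal and telencephalic genes had a median of 1.37 (11 of 11 higher), with Zbtb20 (0.68, SE 0.29), Emx2 (1.46, SE 0.70) and Lhx2 (1.34, SE 0.75). For these 9 genes the adjusted p lay between 0.40 and 0.85 (edgeR). No pituitary record was tested.

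Without control libraries 1 and 2, which leaves 1 control whose spread is taken from the VNS group, the medians of the 11 lists with tested records lay between 0.11 and 0.97, and each was above 0. Without control library 3, 28 of 83 listed records passed (11 higher and 17 lower), against 10.6% of all records. Beside every list named above, the tissue makeup of control libraries 1 and 2 moved with the group, and its part in the difference cannot be told apart from that of VNS in the fit over all 7 libraries.

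The cortex libraries, which the choice of genes did not use, could not test any of the 8. Their totals were 329130 to 435296 reads over 18278 records, and no member passed the filter there. Trh, Avp, Oxt and Gal had 0 reads in all 8 cortex libraries. Hcrt had 2, 0, 2 and 2 reads in VNS cortex and 4, 0, 0 and 0 in control cortex. Pomc had 3 reads over the 4 VNS libraries and 6 over the 4 controls, and Agrp 4 and 0. Pmch had 2, 6, 0 and 1 reads in VNS cortex and 2, 0, 6 and 1 in control cortex. Cortex reads were counted with strand option 1, which takes reads in the sense of the record, whereas the kit named on the samples yields first reads from the opposite strand. Cortex values therefore cannot be read as levels of the named genes, and for Pmch they cannot be told apart from reads of the record on the other strand. Over all 3884 cortex records tested, 0.0257% passed and 2.39% were under an unadjusted p of 0.05.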

How the data were processed

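RNA was sequenced from 7 hippocampal libraries (ribosome-depleted total RNA) and 8 cortex libraries (polyA-selected), per the labels. The submitters' processing notes name Trimmomatic, Bowtie2, SAMtools 0.1.19, featureCounts and edgeR and the build rn5. The deposited values are raw read counts for RefSeq transcripts. Per the file headers they come from featureCounts 1.4.6-p2, with strand option 1 for cortex and no strand option for hippocampus, where reads of a gene and of an antisense partner cannot be told apart. The headers show no paired-end option. Among hippocampal counts of 1 to 20, 54.2% were even in VNS library 1 and 73.9% to 79.0% in the others, so mates of a pair may have been counted separately. Intervals and the 3-read limit cover counting error only and would then be too narrow.

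Symbols came from a RefSeq table of GRCr8, used for names, and promoter letters from RefSeq in the same build; record positions are those of the files (rn5), and no column was left unmapped. Records were kept by filterByExpr (minimum count 10, minimum total 15), scaled by TMM and tested in R 4.3.3 with edgeR 4.0.16 (glmQLFit and glmQLFTest, two-sided, Benjamini-Hochberg over all records, threshold 0.05) within each tissue, after a check on simulated data. Alternatives used DESeq2 1.42.0, limma 3.58.1 and other scalings, filters and libraries. Litters and days are not labelled, so p-values measure the spread between these libraries. No 2 libraries were duplicates (smallest chi-square per degree of freedom 24.2 in hippocampus and 3.12 in cortex). The 8 genes, the 12 lists and the alternatives were chosen with earlier results of these data known. Named genes are the 8, the 3 tested members of each list with the smallest p, and the 3 records most like each member in library pattern; others, such as Lhx9, Sim1, Otp, Nkx2-1, Oxtr, Trhde, Slc6a3 and Neurod6, were chosen after their values were seen.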

Additional observations from a re-analysis of the deposited data

Results flagged for a closer look

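Single libraries far from the rest of their group, by a gap test, were found in 13 of 46 groups of 4 libraries. The test is set to pick out about 1 group in 20 of normally distributed values. That rate does not hold for counts of a few reads, so 13 of 46 is not read as an excess. The test was not applied to the 3 hippocampal controls, so none of them could be flagged. In VNS hippocampus, Trh stood at 44.3 CPM and Tac3 at 48.9 CPM in library 1. Pomc stood at 4.47 CPM, Prkcd at 41.2 CPM, Foxb1 at 0.49 CPM and Sox14 at 1.36 CPM in VNS library 2. Emx2 stood at 39.8 CPM in VNS library 3, the shallowest outside ribosomal RNA. Chrna3 at 0.10 CPM and Chrnb4 at 0.030 CPM were the low values, both in VNS library 1.

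In cortex the values rest on 6 reads or fewer. Agrp stood at 11.5 CPM in VNS library 1, Hcrt at 0 CPM in VNS library 2 and 12.2 CPM in control library 1, and Pomc at 17.8 CPM in control library 3.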

How the results depend on the processing

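The count of called hippocampal records (0 with edgeR, where 1537 had an unadjusted p under 0.05) was 194 without a composition factor, 17 with DESeq2 and 0 with limma-voom, and 0 to 1377 without 1 library (1377 without control library 3). In cortex it was 1, against 5 without a filter, 6 with the 1 CPM filter, 0 with limma-voom and 0 to 4 without 1 library (0 without VNS library 1 or 4 or control library 2, 3 or 4, and 4 without control library 1). Listed genes passing numbered 0, against 22 without a composition factor and 0 to 28 without 1 library. The number of the 8 genes with a higher mean after VNS was 5, and 4 to 7 without 1 library. Under other settings, 92 ratios of single members moved by less than their spread between libraries and 5 by more. That spread is wide enough for a sign to turn within it. This happened for Oxt (0.22 without control library 1), Pomc (-0.26 without VNS library 2) and Gal (-0.08 without VNS library 1). The count of 92 is therefore no sign that the ratios are stable.

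Without control libraries 1 and 2 the sign turned for Qpct (0.24), Cartpt (2.09), Barhl1 (2.29), Sox14 (6.66), Lef1 (0.52), Prkcd (0.60), Six3 (0.37), Drd2 (0.44), Adora2a (0.16), Chrnb3 (2.78), Tal1 (0.55), Clic6 (0.40), Kl (0.97) and Ttr (1.04), each against 1 control library (adjusted p = 0.99995, edgeR). Without a composition factor it turned for Oprd1 (-0.047), Scg3 (-0.10) and Chrnb4 (-0.33), and with limma-voom for Chrnb4 (-0.85). Without 1 library the log2 fold change ran from -4.43 to 0.55 for Sox14, from -5.31 to 0.50 for Prkcd, from -0.69 to 0.10 for Chrna3 and from -2.78 to 1.4 for Ttr. Apart from what each setting leaves out, the cause was not tested. No paired analysis was possible because the labels give no replicate numbers that tie VNS to control rats. At 3 reads, VNS library 3 cannot show levels under 0.61 CPM.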
